A study of Homo sapiens with 6 samples.

Results

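Interferon-stimulated genes are the genes that a cell switches on when an interferon reaches it. The 39 genes described here are the members of this group named by current symbol (*IFIT1*, *IFIT2*, *IFIT3*, *IFIT5*, *IFI6*, *IFI27*, *IFI35*, *IFI44*, *IFI44L*, *IFIH1*, *IFITM1*, *IFITM2*, *IFITM3*, *ISG15*, *ISG20*, *MX1*, *MX2*, *OAS1*, *OAS2*, *OAS3*, *OASL*, *RSAD2*, *STAT2*, *IRF1*, *IRF7*, *IRF9*, *USP18*, *HERC5*, *HERC6*, *DDX60*, *RIGI*, *SAMD9*, *SAMD9L*, *PARP9*, *PARP14*, *DTX3L*, *BST2*, *XAF1* and *UBE2L6*), and all 39 were found among the 58884 genes of the count tables. RNA was sequenced from HSC4, a widely used cell line grown from a squamous cell carcinoma of the human mouth, 24 h after the start of treatment. Of the 6 libraries, 3 came from cells given 50 µM DAPT, a blocker of γ-secretase (the membrane protease whose cut sets the signalling part of a Notch receptor free), and 3 from control cells. The study's methods give the controls the DMSO vehicle, whereas their deposited columns carry the letters GM and the series text speaks of normal growth medium, so an effect of the vehicle cannot be told apart from that of DAPT. All libraries came from 1 cell line, and nothing states that they were separate cultures, so that p-values measure the spread between these libraries, which may be technical.

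In the classical pathway, type I interferons bind IFNAR1 and IFNAR2, type III interferons bind IFNLR1 with IL10RB, and the kinases JAK1 and TYK2 then phosphorylate STAT proteins, STAT2 among them. With IRF9 these form a complex that binds the interferon-stimulated response element in the promoters of target genes. The products sense viral RNA, block steps of viral replication, mark proteins with ISG15, or raise or damp the response itself. Many epithelial and carcinoma cells hold some of these transcripts without added interferon.

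The promoters were searched for the response element, which is known from many genes of this kind. RefSeq promoters (GRCh38.p14, 250 bases before to 50 bases after a start site) were at hand for 32 members and for 27305 genes in all. The core of the response element was searched on both strands as 2 copies of GAAA separated by any 2 bases. It stood in a promoter of 22 of the 32 members (68.8%) and of 1195 of all 27305 genes (4.38%). A longer form, in which CT follows the second GAAA and which is by construction part of the core matches, was found for 15 members (46.9%) and 88 of all genes (0.322%). For the core, the shares of members that later passed the test (11 of 15, 73.3%) and of the others (11 of 17, 64.7%) lay close together. For the longer form the order was reversed, with 6 of 15 (40%) and 9 of 17 (52.9%). The core match was missing from these windows of *STAT2*, *IRF1*, *IRF9*, *RIGI*, *OAS1*, *UBE2L6*, *HERC6*, *SAMD9L*, *IFI35* and *XAF1*, and *IRF7*, *IFIT2*, *OAS2*, *OASL*, *MX2*, *IFITM2* and *USP18* had no entry. A match is a description of letters and not of binding, which was not measured.

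The following stretches show the match nearest to the start site, in capitals, within its neighbouring bases. Each is written 5′ to 3′ on the strand of its gene, so that TTTC stands where the element lies on the other strand. The first 6 belong to genes that were higher with DAPT, and the last 3 to genes that carried the same letters but did not pass the test.
IFI6 (chr1:27672256-27672305, minus strand): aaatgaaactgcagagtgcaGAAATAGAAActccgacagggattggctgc
ISG15 (chr1:1013370-1013419, plus strand): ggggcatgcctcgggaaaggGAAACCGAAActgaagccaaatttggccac
IFI44L (chr1:78620355-78620404, plus strand): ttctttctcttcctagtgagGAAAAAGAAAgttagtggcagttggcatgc
RSAD2 (chr2:6877612-6877661, plus strand): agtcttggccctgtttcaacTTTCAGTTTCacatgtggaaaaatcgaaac
PARP9 (chr3:122564312-122564361, minus strand): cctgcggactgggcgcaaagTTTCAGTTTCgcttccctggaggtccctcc
PARP14 (chr3:122680790-122680838, plus strand): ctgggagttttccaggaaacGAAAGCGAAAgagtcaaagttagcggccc
IFIT1 (chr10:89392500-89392549, plus strand): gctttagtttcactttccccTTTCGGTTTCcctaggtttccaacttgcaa
BST2 (chr19:17405725-17405774, minus strand): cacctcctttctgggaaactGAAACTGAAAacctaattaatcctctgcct
SAMD9 (chr7:93118086-93118135, minus strand): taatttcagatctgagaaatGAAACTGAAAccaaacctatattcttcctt

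The *PARP9* stretch is also the promoter match of *DTX3L*, which starts on the opposite strand. The same 10 capital letters lie at positions -41 to -32 before the start of *PARP9* and at positions -6 to 4 around that of *DTX3L*. The *IFI6* match lies at -93 to -84, that of *ISG15* at -107 to -98, and that of *RSAD2* at -145 to -136 from the start.

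Read totals lay between 12276313 and 16317672 per library, and 3 reads, taken as the smallest signal, stood for 0.184 to 0.244 CPM (counts scaled to library size), a limit that covers counting error only. As a check of the treatment, the Notch targets *HES1*, *HES4* and *HEY1* fell with DAPT, by 0.77, 1.48 and 1.98 on the log2 scale, as did *HES2* and *NRARP*. Of 8 squamous markers, 6 fell and 1 (*CDH1*) rose. *KRT5* lay at 2628 to 2753 CPM in the controls and 1273 to 1359 CPM with DAPT, and *KRT14* at no more than 3.53 CPM anywhere. Most leukocyte transcripts were at or near 0: *CD3E* and *NKG7* had no read, and *PTPRC* reached 0.146 CPM. The 8 leukocyte markers summed to no more than 15.2 CPM in any library, most of it *CD14*. *CD14* lay at 10.4 to 12.7 CPM in the controls and 8.76 to 10.3 CPM with DAPT, and fell by 0.30 on the log2 scale. *ITGAM* lay at 1.09 to 2.23 CPM. Of 4 endothelial markers, *CLDN5* had no read and *PECAM1* stayed at or below 0.0767 CPM, while *CDH5* was higher with DAPT at 1.39 to 2.33 CPM. *VWF* lay at 0.584 to 1.30 CPM.

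Control replicate 1 stood apart from the other 5 libraries. Its 6 fibroblast markers summed to 551 CPM, against 58.2 and 57.1 CPM in the other controls and 49.9, 51.0 and 55.1 CPM with DAPT. *COL1A2*, a fibrillar collagen gene, was at 214 CPM there and at no more than 2.02 CPM elsewhere, and *DCN* at 20.4 CPM against at most 0.165 CPM. This library was also the highest control for 30 of the 38 tested interferon-stimulated genes, and for 37.8% of all tested genes. That order was not peculiar to the controls. DAPT replicate 1 was the highest treated library for 26 of the 38, with a similar share of all tested genes. Control replicate 3 was the lowest control for 28 of the 38, and DAPT replicate 3 the lowest treated library for 35. The cause of this order was not tested. The part of control replicate 1 in the levels of these genes was not tested either, and the results are therefore given with and without that library.

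Interferon-stimulated genes rose after DAPT in 19 cases, most of them by less than 2-fold, and did not pass the test in the other 19. Of the 39 genes, 38 passed the low-count filter and were tested with edgeR's quasi-likelihood test across 15001 genes. Of these, 19 rose at an adjusted p under 0.05 (50.0%), beside 17.2% of all tested genes. None fell, where 18.0% of all genes did. At an unadjusted p under 0.05, 1 member (*OASL*) was lower and 26 were higher. The share of all genes at that looser limit was not counted, so 17.2% and 18.0% are no background for these counts. DESeq2 called 19 members higher and 0 lower, beside 1802 and 2172 of all genes. The count of higher members depended on the test. It was 29 higher and 0 lower by limma-voom and 30 higher and 0 lower when the edgeR fit was not robust, each holding the 19. Over all genes, limma-voom called 2509 higher and 2652 lower, and the fit that was not robust 2534 and 2688, against 2574 and 2707 with the robust fit. Limma-voom and the fit that was not robust both also called *STAT2*, *DDX60*, *IFIT1*, *IFIT2*, *IFIT3*, *OAS1*, *MX1*, *IFITM1*, *SAMD9L* and *IFI44* higher, and the latter also *BST2*. A block for replicate number, a pairing that no label states, called all of these and *IFITM3* higher, 31 members in all, and *OASL* lower. Over all genes it called 2558 higher and 2737 lower. Where these genes are given as not called, this holds for the robust edgeR fit without that block. The median log2 fold change was 0.44 over the 38 genes and 0.01 over all genes, and 36 of the 38 values were above 0. In 23 of the 38 members (60.5%) all 3 DAPT libraries lay above all 3 controls, beside 23.6% of all tested genes. In 0 members did they all lie below, beside 3395 of the 15001 tested genes. Scaled by library size alone, the calls over all genes were 3445 higher and 2156 lower, against 2574 and 2707, and those of the members 22 and 0. In bulk RNA a change in the number of transcribing cells and a change in RNA per cell cannot be told apart.

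The changes were small. Only *RSAD2* and *IFI44L* were called with a change of at least 2-fold, and 9 of the called genes changed by at least 1.5-fold. As background, 90 of all 15001 tested genes were called higher and met the 2-fold limit. The 1.5-fold limit was met by 344 of them, beside the 9 of 38 members. The summed level of the 39 genes was 4304, 3845 and 3632 CPM in control replicates 1, 2 and 3 and 5485, 5528 and 4708 CPM in the DAPT libraries. The groups did not overlap, but DAPT replicate 3, lowest among the treated libraries for 35 of the 38 tested genes, stood nearer to control replicate 1 than the other treated libraries did. Without control replicate 1, 25 members were called higher (65.8%, beside 18.0% of 15162 genes) and 0 lower, beside 2892 of those 15162 genes. Of those 25, 18 were among the 19, and the median rose to 0.58. That library was the highest control for 30 of the 38 tested genes, so leaving it out raises most of their values by construction. The values without it are therefore no independent check. The median was 0.38 without control replicate 2 or 3, 0.35 without DAPT replicate 1, 0.43 without DAPT replicate 2 and 0.50 without DAPT replicate 3. Leaving out another library gave counts on either side of 19. They were 12 without control replicate 2, 10 without control replicate 3, 15 without DAPT replicate 1, 12 without DAPT replicate 2 and 22 without DAPT replicate 3. Calls over all genes fell too. In the same order, 1962 of 15162, 1901 of 15323, 2075 of 15190, 1984 of 15330 and 2046 of 15353 genes were higher, against 2574 of 15001 with all libraries. *IRF7*, *DTX3L*, *PARP9*, *PARP14*, *OAS3*, *HERC6*, *RSAD2* and *ISG15* were called higher in each of the 6 fits that left out 1 library. *IFI44L* lost its call in all but the fit without control replicate 1, and *RIGI*, *IFIH1*, *OAS2* and *XAF1* lost theirs without control replicate 2, control replicate 3, DAPT replicate 1 or DAPT replicate 2. *MX2* was not called without control replicate 2, control replicate 3 or DAPT replicate 2, *USP18* without control replicate 3 or DAPT replicate 1, *IFI27* without control replicate 1 or 3, *IFI6* without control replicate 2, *IFIT5* without control replicate 3 and *IFI35* without DAPT replicate 2. Such fits have fewer samples than that with all 6 libraries.

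**Figure D1:**
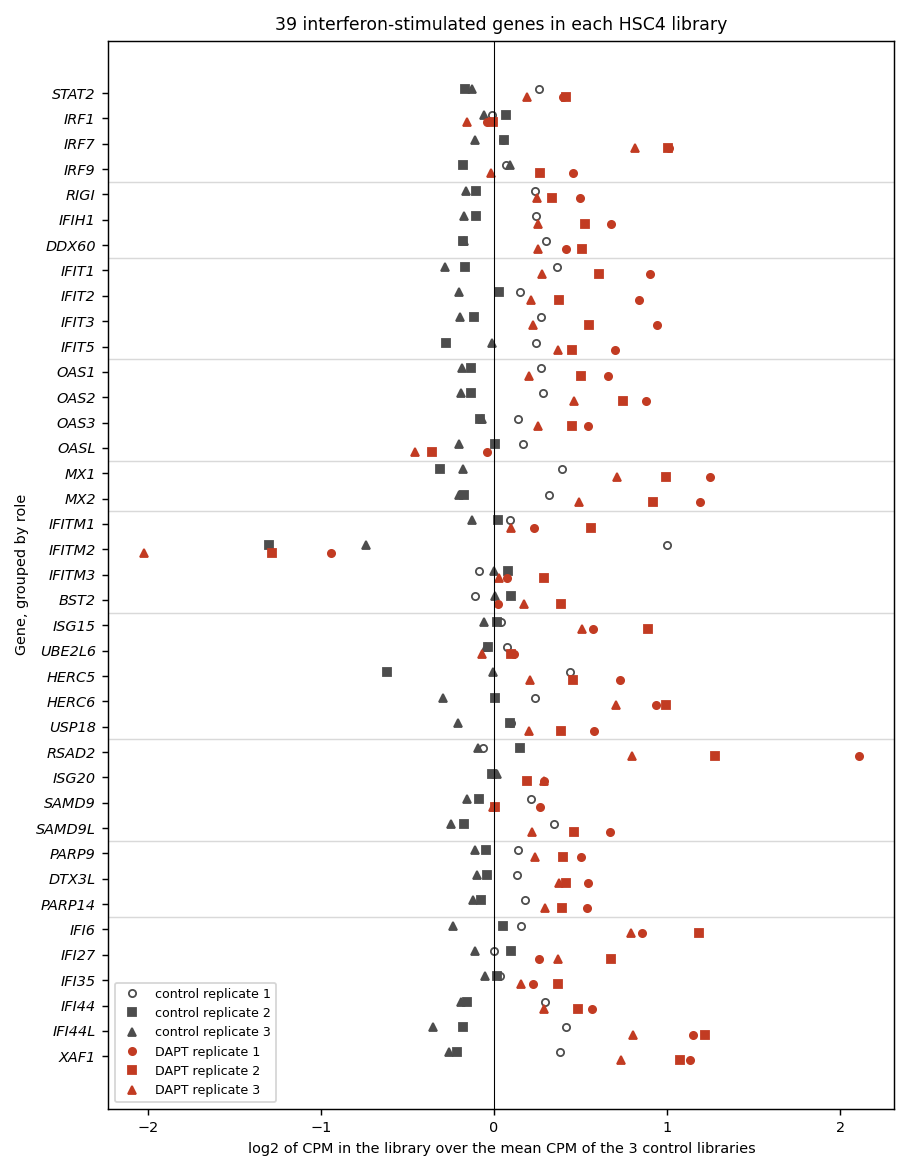
Level of each of the 39 genes in each of the 6 libraries, as log2 of its CPM over the mean CPM of the 3 controls, with genes grouped by role and divided by grey lines. Grey symbols are controls, red symbols DAPT, and shapes give the replicate. In 23 of the 38 tested genes every red symbol lies to the right of every grey one, and the open circle of control replicate 1 is the rightmost grey symbol in 30. *IFITM2*, which was not tested, lies on few reads.

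Per kilobase of exon, the level of the 39 genes spanned a wide range before treatment. *IFITM3* was the most abundant in the controls at 445 CPM per kilobase, followed by *IFI6* (182), *BST2* (171) and *IFITM1* (134). *RSAD2* and *HERC5* were the least abundant, at 0.262 and 0.279 CPM per kilobase. With DAPT *IFITM3* stayed first at 488 CPM per kilobase, and *IFI6* came to 352.

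Among the transcription factors and signal transducers, *IRF7* rose and the other 3 were not called. *IRF7* (ENSG00000185507, chr11:612553-615999, minus strand) is the factor that amplifies interferon production and is itself an interferon target. Its level was 40.1, 40.3 and 35.9 CPM in the controls and 78.0, 77.8 and 68.2 CPM with DAPT. Every treated library lay well above every control, and the log2 fold change was 0.94 ± 0.07 (SE, adjusted p = 6.65e-10), or 0.97 without control replicate 1. It had the smallest adjusted p of the 38 genes.

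*STAT2*, a subunit of the complex that binds the response element, had the highest level per kilobase of these 4 genes in the controls, while *IRF7* did with DAPT. It was at 145, 108 and 111 CPM in the controls and 160, 162 and 139 CPM with DAPT. Control replicate 1 overlapped the treated libraries, and the log2 fold change of 0.33 ± 0.13 did not pass the test (adjusted p = 0.107). Without that library it was 0.49 ± 0.06 and passed (adjusted p = 1.09e-06). *IRF9*, the DNA-binding partner of STAT2, was counted at 4.18 to 5.04 CPM in controls and 4.68 to 6.48 CPM with DAPT (0.26, adjusted p = 0.223). Its counts understate it, since 45.5% of its exons overlap another gene on the same strand and reads in both were not counted. *IRF1*, a factor better known from the response to interferon gamma, was at 70.8 to 77.1 CPM and 66.0 to 73.4 CPM (-0.07, adjusted p = 0.409).

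The 3 sensors of viral RNA all had positive values, and 2 passed the test. *RIGI*, which detects the ends of foreign double-stranded RNA, was at 123, 97.2 and 93.4 CPM in the controls and 147, 132 and 124 CPM with DAPT. Control replicate 1 came close to the lowest treated library. The log2 fold change of 0.36 ± 0.12 was called at an adjusted p of 0.0494, just inside the limit, and DESeq2 did not call it. *IFIH1*, which encodes MDA5, the sensor of long double-stranded RNA, rose by 0.49 (adjusted p = 0.044). *DDX60*, a related helicase, had 0.39 and was not called (adjusted p = 0.0727). Without control replicate 1 all 3 genes were called, at 0.50 for *RIGI*, 0.64 for *IFIH1* and 0.58 for *DDX60*.

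The 4 *IFIT* genes lie side by side on chromosome 10 (89283694 to 89420997) and encode proteins that bind viral RNA or block its translation. All had log2 fold changes between 0.50 and 0.61, of which only that of *IFIT5* was called. *IFIT5* was at 46.2, 32.2 and 38.7 CPM in the controls and 63.3, 53.3 and 50.5 CPM with DAPT, without overlap (0.51 ± 0.14, adjusted p = 0.0216). *IFIT3*, the most abundant per kilobase, was at 98.1, 75.2 and 70.9 CPM and 156, 119 and 94.9 CPM. Its treated libraries differed among themselves by more than its controls did, control replicate 1 lay above DAPT replicate 3, and the value of 0.60 ± 0.25 was not called (adjusted p = 0.152). *IFIT1* had the largest value of the family at 0.61 ± 0.27 (adjusted p = 0.161), and *IFIT2*, whose groups did not overlap, had 0.50 ± 0.21 (adjusted p = 0.149). Without control replicate 1 the groups of all 4 genes were apart, and *IFIT1*, *IFIT2* and *IFIT3* still did not pass, at adjusted p values of 0.0791 to 0.195.

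The *OAS* enzymes make oligoadenylates that lead to the decay of viral RNA. *OAS1*, *OAS3* and *OAS2* are neighbours on chromosome 12 (112906783 to 113011723), whereas *OASL*, which lacks the enzyme activity, lies farther along the same chromosome. *OAS3*, the most abundant of them per kilobase, was at 357, 307 and 308 CPM in the controls and 471, 443 and 386 CPM with DAPT (0.42 ± 0.08, adjusted p = 0.000974). *OAS2* (ENSG00000111335) was at 113, 84.6 and 81.2 CPM and 170, 155 and 128 CPM, a larger change with a wider error (0.70 ± 0.18, adjusted p = 0.0447). In both genes the treated libraries lay above every control. *OAS1* had 0.46 and was not called (adjusted p = 0.132), whereas without control replicate 1 it had 0.63 and was (adjusted p = 0.0344). *OASL* had the lowest value of the 38 genes, at 11.7 to 15.2 CPM in controls and 9.82 to 13.1 CPM with DAPT (-0.28 ± 0.12, adjusted p = 0.0801), and was the one member that any fit called lower among those tested.

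The *MX* genes encode dynamin-like GTPases that trap incoming viral nucleoproteins and capsids, and they adjoin each other on chromosome 21 (41361999 to 41459214). *MX2* (ENSG00000183486) was at 19.9, 14.1 and 13.9 CPM in the controls and 36.4, 30.1 and 22.4 CPM with DAPT. The lowest treated library stood just above the highest control, and the change was called (0.88 ± 0.25, adjusted p = 0.0462). *MX1* changed by as much, from 80.3, 49.2 and 54.1 CPM to 145, 122 and 100 CPM. Its treated libraries all lay above its controls too, but its log2 fold change of 0.99 ± 0.26 fell just outside the limit (adjusted p = 0.0501). Without control replicate 1 it was 1.25 ± 0.21 and was called (adjusted p = 0.0214), as it was by DESeq2 with all libraries.

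The membrane proteins that stop viruses from fusing or leaving were among the most abundant members and had the lowest median log2 fold change of the 10 roles (0.20). None of the 3 tested genes was called, by the robust edgeR fit or by DESeq2. At an unadjusted p under 0.05, a limit at which all genes were not counted, 2 of them were higher. *IFITM3*, which blocks fusion in endosomes, was at 482, 543 and 512 CPM in the controls and 540, 625 and 522 CPM with DAPT. The groups overlapped (0.13 ± 0.06, adjusted p = 0.11). *BST2*, or tetherin, which holds budding virions at the surface, had 0.20 ± 0.09 (adjusted p = 0.107), and *IFITM1* 0.31 ± 0.13 (adjusted p = 0.131). The last of these had no overlap between groups, at 115 to 133 CPM against 134 to 185 CPM. *IFITM2* failed the filter, with 40, 7 and 9 reads in the controls and 10, 7 and 4 with DAPT. It shares exons with *IFITM1*, and members of the family are close in sequence, and reads that lie in shared exons or map to several places were not counted.

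The ISG15 system tags proteins with a small relative of ubiquitin. *ISG15* itself (ENSG00000187608) was at 62.9, 62.0 and 58.7 CPM in the controls, 90.9, 113 and 87.0 CPM with DAPT, and rose with a wide gap between the groups (0.66 ± 0.08, adjusted p = 4.98e-05). *HERC6* (ENSG00000138642), a HECT-type protein related to the ISG15 ligase, was at 24.4, 20.8 and 16.9 CPM and 39.6, 41.1 and 33.7 CPM (0.87 ± 0.11, adjusted p = 2.75e-05). Its neighbour *HERC5*, which encodes that ligase, was rare, at 0.865 to 1.80 CPM and 1.53 to 2.20 CPM, and was not called (0.47 ± 0.28, adjusted p = 0.214). *USP18*, which removes ISG15 and damps signalling at the type I receptor, rose by 0.39 (adjusted p = 0.00742). *UBE2L6*, the conjugating enzyme and in the controls the most abundant of the group per kilobase, was at 147, 137 and 136 CPM and 152, 150 and 133 CPM, values that overlapped (0.05 ± 0.06, adjusted p = 0.531).

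Among the other antiviral effectors, *RSAD2* had the largest change of the 38 genes. *RSAD2* (ENSG00000134321, chr2:6865806-6898239, plus strand) encodes viperin, a radical enzyme that makes a chain-terminating nucleotide. It was at 1.18, 1.37 and 1.16 CPM in the controls and 5.32, 2.99 and 2.15 CPM with DAPT. The controls were alike, the treated libraries spread over more than 2-fold, and none overlapped (1.51 ± 0.31, adjusted p = 0.00115). The value was 1.48 ± 0.39 without control replicate 1. *ISG20*, an exonuclease for RNA, was higher in every treated library (8.47 to 9.08 CPM against 7.35 to 7.52 CPM) but was not called (0.26 ± 0.12, adjusted p = 0.0961).

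*SAMD9* and *SAMD9L* are paralogs on chromosome 7 that restrain translation and growth. *SAMD9* was the more abundant, at 319, 259 and 247 CPM in the controls and 331, 276 and 274 CPM with DAPT. Control replicate 1 lay above 2 of the treated libraries (0.09 ± 0.12, adjusted p = 0.621), and without it the value was 0.22 ± 0.08 (adjusted p = 0.0458). *SAMD9L* had 0.45 ± 0.21 with all libraries (adjusted p = 0.176) and 0.68 ± 0.12 without that one (adjusted p = 0.00214).

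*PARP9*, *DTX3L* and *PARP14* lie together on chromosome 3 (122527924 to 122730840) and were the only role in which every gene rose. PARP9 and DTX3L form a complex of an ADP-ribosyltransferase and a ubiquitin ligase that enhances interferon signalling, and PARP14 is a related transferase. *DTX3L*, the most abundant per kilobase, was at 196, 173 and 167 CPM in the controls and 260, 239 and 231 CPM with DAPT (0.44 ± 0.06, adjusted p = 1.05e-05). *PARP9*, which shares the promoter stretch printed above, changed from 134 to 159 CPM to 170 to 204 CPM (0.38 ± 0.07, adjusted p = 0.000635). *PARP14* changed from 198 to 243 CPM to 263 to 311 CPM (0.41 ± 0.08, adjusted p = 0.00236). All 3 had small errors, with no overlap between groups, and values of 0.46 to 0.52 without control replicate 1. They were called higher in each of the 16 alternative fits, as were *IRF7*, *OAS3*, *HERC6* and *RSAD2*.

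Of the interferon-inducible *IFI* genes and *XAF1*, 5 of 6 rose. *IFI6* (ENSG00000126709, chr1:27666064-27672198, minus strand) encodes a small membrane protein that protects against apoptosis and flavivirus replication, and it was the most abundant of them per kilobase. It was at 171, 159 and 130 CPM in the controls and 276, 348 and 265 CPM with DAPT. The lowest treated library stood far above the highest control (0.95 ± 0.16, adjusted p = 0.00961). *IFI44L* (ENSG00000137959), a feedback gene of the interferon response, was at 61.1, 40.4 and 35.8 CPM and 102, 107 and 79.9 CPM (1.06 ± 0.26, adjusted p = 0.0403). *XAF1* (ENSG00000132530), which binds the apoptosis inhibitor XIAP, was at 48.5, 32.1 and 31.0 CPM and 81.5, 78.4 and 61.8 CPM (0.98 ± 0.23, adjusted p = 0.0326). Both had their highest control in replicate 1, no overlap between groups, and larger values without it, 1.33 ± 0.16 and 1.23 ± 0.12.

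*IFI27*, a mitochondrial protein gene, was at 294 to 340 CPM in the controls and 380 to 506 CPM with DAPT (0.44 ± 0.11, adjusted p = 0.0252). Its value stayed at 0.45 without control replicate 1, but with the larger error it was no longer called (adjusted p = 0.149). *IFI35*, whose product pairs with NMI, had the smallest called change (0.25 ± 0.07, adjusted p = 0.00522). *IFI44*, the neighbour of *IFI44L* on chromosome 1, was not called with all libraries (0.44 ± 0.16, adjusted p = 0.0963) and was called without that one (0.63 ± 0.07, adjusted p = 3.84e-07).

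**Figure D2:**
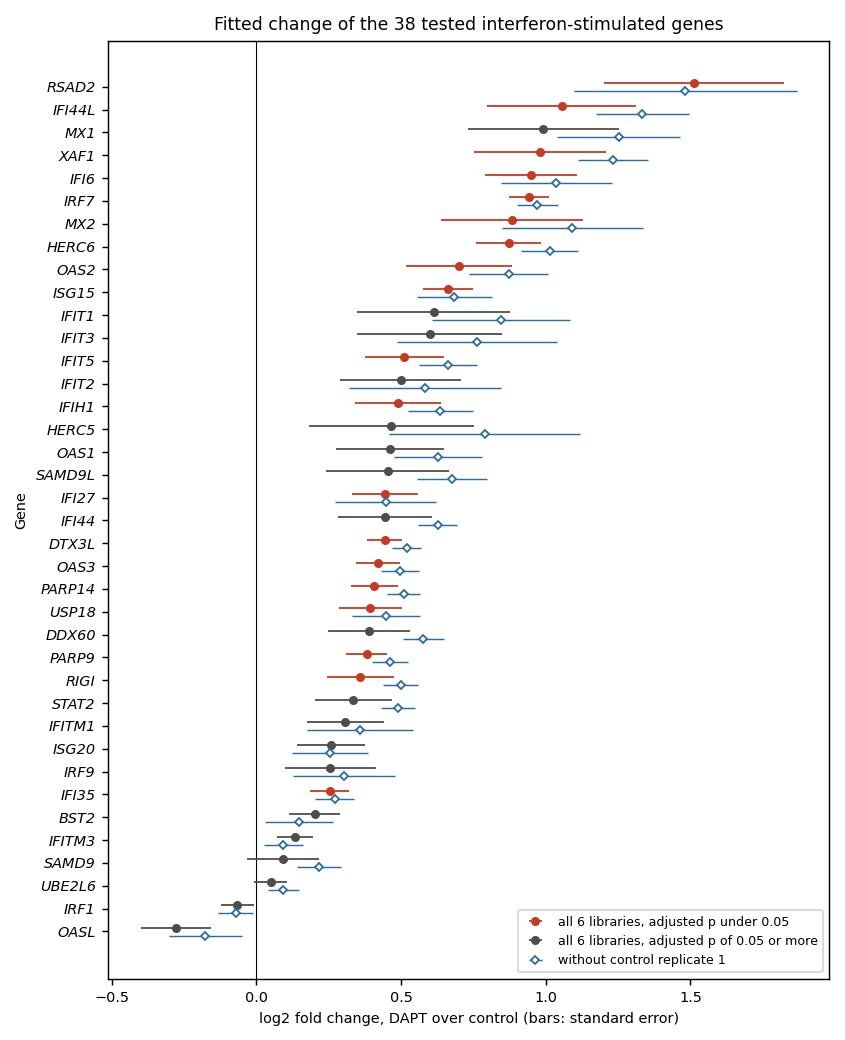
Fitted log2 fold change of DAPT over control for the 38 tested genes, ordered by size, with standard errors as bars. Filled circles use all 6 libraries and are red where the adjusted p was under 0.05. Open blue diamonds leave out control replicate 1. Values run from -0.28 (*OASL*) to 1.51 (*RSAD2*), and 19 circles are red.

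**Figure D3:**
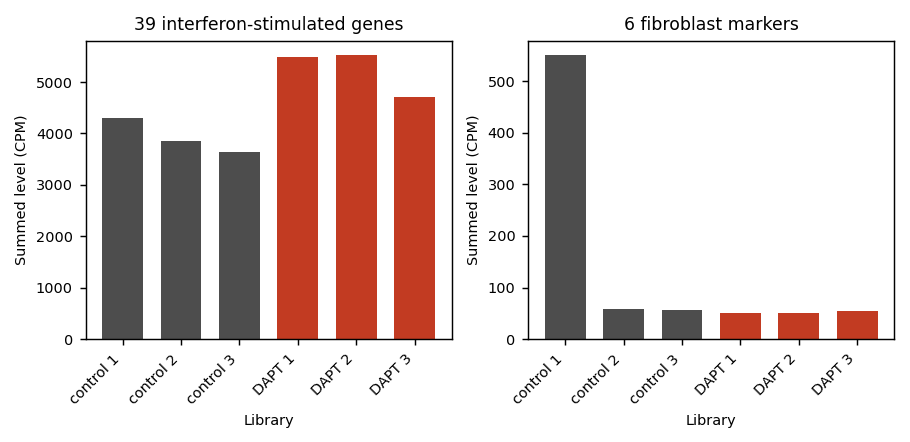
Summed CPM of the 39 interferon-stimulated genes (left) and of 6 fibroblast markers (right) in each library, with axes from 0. The left bars reach 3632 to 4304 CPM in controls and 4708 to 5528 CPM with DAPT. On the right, control replicate 1 stands at 551 CPM and the others at 58.2 CPM or less.

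Interferon transcripts themselves were hardly present. Of 21 ligand genes, 3 had any read. *IFNB1* had 1 read, in control replicate 2, *IFNL1* had 1 read, in DAPT replicate 2, and *IFNK*, an interferon of keratinocytes, had none in any library, which allows a level of up to 0.184 to 0.244 CPM. The *IFNA* genes are near-identical copies, and reads that map to several places were not counted, so their zeros carry less weight. *IFNE*, an epithelial interferon expressed constitutively, was the one tested, at 5.59, 5.26 and 4.96 CPM in the controls and 6.55, 5.47 and 6.14 CPM with DAPT. The groups overlapped (0.20 ± 0.14, adjusted p = 0.305).

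Of 16 genes of the receptor and JAK-STAT list, 4 rose (25%, beside 17.2% of all tested genes) and the other 12 were not called, with a median log2 fold change of 0.04. Without control replicate 1, 5 were higher (31.2%, beside 18.0% of all genes tested then) and 0 lower, and the median was 0.03. *JAK2*, the kinase of the interferon gamma receptor, rose by 0.51 (19.5 ± 1.06 to 27.8 ± 0.293 CPM, SD, n = 3), *JAK1* by 0.23 (adjusted p = 0.000928), the phosphatase *PTPN2* by 0.16 and *STAT3* by 0.14.

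The receptor chains were not called in either direction. The log2 fold changes were 0.10 for *IFNAR1*, -0.30 for *IFNAR2* (adjusted p = 0.114), -0.07 for *IFNGR1* and -0.22 for *IFNLR1* (adjusted p = 0.126). In *IFNAR2* and *IFNLR1* every treated library lay below every control, as in 3395 of all 15001 tested genes. In *IFNAR1* every treated library lay above every control, as in 3542 of them. *TYK2*, the second kinase of the type I receptor, had -0.02.

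Of 19 genes for sensing nucleic acids upstream of interferon, 16 were tested, 6 rose (37.5%, beside 17.2% of all tested genes) and 2 fell (12.5%, beside 18.0%), with a median of 0.07. *DHX58*, which encodes LGP2, a relative of RIG-I and MDA5, had the largest change (25.4 ± 1.92 to 39.2 ± 2.05 CPM, 0.63, adjusted p = 1.84e-06). The others that rose were *NLRC5*, a transactivator of class I antigen presentation (0.38), *TLR3*, the endosomal sensor of double-stranded RNA (0.37), *TRAF6* (0.26), *TRIM25*, a ubiquitin ligase for RIG-I (0.21), and *MAVS*, the adaptor of RIG-I and MDA5 (0.19). *CGAS*, the enzyme that detects cytosolic DNA, changed by -0.27 (adjusted p = 0.00602), and *STING1*, its adaptor, by -0.35 (adjusted p = 0.00134). The counts of this list were 6 and 2 also without control replicate 1.

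A further list held 42 other type I response genes. It was written from general knowledge but with earlier results of these data known, so its shares are no independent test. Of 39 tested, 19 were higher (48.7%, beside 17.2% of all tested genes) and 2 lower (5.1%, beside 18.0%), with a median of 0.25. *CMPK2*, a nucleotide kinase gene that adjoins *RSAD2* on the opposite strand, had the largest change, from 1.30, 0.793 and 1.32 CPM to 4.34, 2.04 and 2.15 CPM (1.33 ± 0.32, adjusted p = 0.00325). As in *RSAD2*, DAPT replicate 1 was the highest library. *TMEM140* (0.68), *DDX60L* (0.64), *HELZ2* (0.57), *SP100*, a nuclear body protein (0.50), and *APOL6* (0.48) also rose. *LGALS9*, which encodes galectin-9, fell by 0.73 (adjusted p = 0.000292). The other lower gene, *CNP*, named after its value was seen, was not called without control replicate 1 (adjusted p = 0.061), when 23 genes were higher and 1 lower.

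Of 23 genes best known from interferon gamma, 18 were tested, 3 rose (16.7%) and 4 fell (22.2%), shares near the 17.2% and 18.0% of all tested genes, and the median was -0.00. *WARS1*, a tRNA synthetase, rose from 166 ± 9.38 to 331 ± 8.32 CPM (0.99, adjusted p = 1.98e-12), *TAP1*, a peptide transporter, by 0.27 and *ICAM1* by 0.20. *CIITA*, the transactivator of class II antigen presentation, fell by 0.76, *GBP2*, a guanylate-binding protein gene, by 0.46 and *CASP1* by 0.33. The fourth, *GBP5*, named after its value was seen, was below 1 CPM on average over the 6 libraries and was not called without control replicate 1 (adjusted p = 0.403), when 4 genes of the list were higher and 3 lower.

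**Figure D4:**
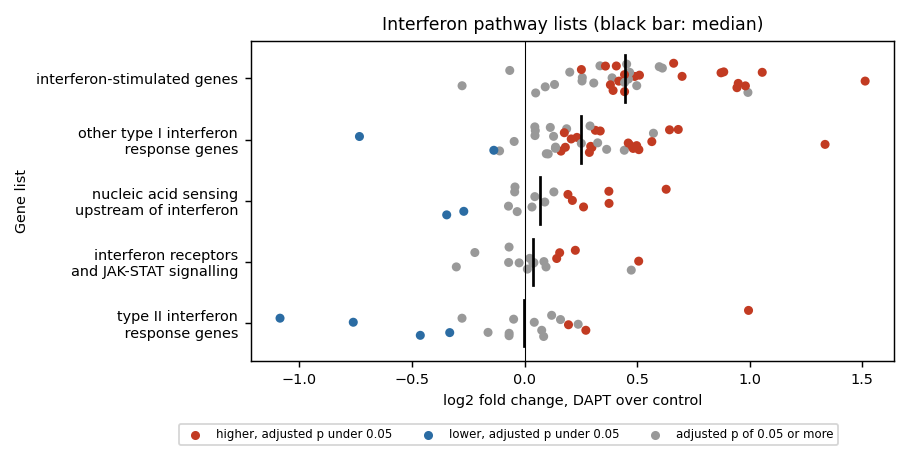
Log2 fold change of every tested gene in 5 lists of the interferon pathway. Each dot is a gene, spread vertically at random, red where it rose and blue where it fell at an adjusted p under 0.05, and black bars are medians. The medians are 0.44 for the interferon-stimulated genes, 0.25 for other type I response genes, 0.07 for sensing, 0.04 for receptors and signalling, and -0.00 for type II response genes.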

How the data were processed

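The authors sequenced mRNA libraries (NextSeq 500, single-end, strand-specific), used Trim Galore for trimming and HISAT2 for alignment to GRCh38 (versions not given in the sources used here) and counted reads for each gene over exons on the gene's own strand with featureCounts 1.6.3 (Ensembl release 96, per the file headers). They deposited unnormalized counts. Reads mapping to several places or genes were not counted by default. The submitters' processing notes also list HTSeq and DESeq2, and the study's methods name edgeR.

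Groups came from the sample labels. Of 58884 genes, 58472 matched a symbol in GENCODE release 44. edgeR 4.0.16 (R 4.3.3) was used with its low-count filter (minimum count 10), TMM factors, a robust quasi-likelihood fit, and Benjamini-Hochberg adjustment over all 15001 tested genes, with a gene called at an adjusted p under 0.05. CPM values use TMM-scaled library sizes. Standard errors (SE) were back-calculated as the absolute log2 fold change divided by the square root of the quasi-likelihood F. Genes with a similar ratio of change to SE can still differ in p. Scripts were tested on simulated data. The members and lists were chosen with earlier results of these data known. *SOCS1* and *IFI16* stand in 2 lists each. Library values are given for called members with an absolute log2 change of at least 0.5 and for the most abundant member per length in each role, and from each list the called genes of at least 1 CPM, up to 8, plus some fixed genes. *KRT5*, *KRT14*, *COL1A2*, *DCN* and the other markers were named to check cell types. Alternatives were DESeq2 1.42.0, limma-voom (limma 3.58.1), other scalings and filters, a non-robust fit, a replicate block, stricter limits, a longer motif and each library left out. Leaving out both libraries numbered 1 was added after seeing the data. Read totals of 12276313 to 16317672 per library limit the precision of rare genes. Some genes that the rule would name are not reported here.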

Additional observations from a re-analysis of the deposited data

How the results depend on the processing

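The count of 19 members called higher moved with the test: 29 with limma-voom and 30 with a fit that was not robust, each holding all 19. Over all genes these 2 fits called 2509 and 2534 higher, against 2574. The members' count was 11 at an adjusted p under 0.01 and 2 with at least a 2-fold change. Over all genes, those called higher went from 2574 to 1516 and 90, and those called in either direction from 5281 to 3338 and 356. Leaving out 1 library gave 10 to 25 members higher, 0 to 1 lower and a median of 0.35 to 0.58. Over all genes these fits called 1901 to 2726 higher and 2190 to 2892 lower. DESeq2 gave 19, of which 18 were shared, RLE and upper quartile factors 15 each, and scaling by library size alone 22, with 3445 genes higher and 2156 lower against 2574 and 2707 with TMM. Over all genes DESeq2 called 1802 higher, RLE factors 2529 and upper quartile factors 2485. The count of members lower was 1 with no low-count filter (*IFITM2*). With the filter, *IFITM2* was tested only without DAPT replicate 2 or 3, fits that called 0 members lower. The count was also 1 (*OASL*) without control replicate 3, without DAPT replicate 1, and without both libraries numbered 1, a fit that was chosen after seeing the data and called 26 higher. Same-numbered libraries deviated from their group means with correlations of 0.017, 0.025 and 0.004 over 15001 genes, so the numbers were not taken to pair the libraries. Over the 38 members these were 0.35, 0.26 and 0.33. A replicate block called 31 members higher, the 19 among them, and 1 lower (*OASL*), beside 2558 and 2737 of all genes. *SAMD9* turned to -0.00386 without DAPT replicate 1 (adjusted p = 0.985), and its highest value was 0.215, without control replicate 1. The motif share was 46.9% with the longer form. Of 684 values of single members under alternatives, 1 changed sign, 71 lost their call and 69 gained one. The alternatives include both stricter limits on the same fit, under which calls can only be lost. The cause of the other shifts was not tested. Depth limits *IFITM2*, *HERC5* and *RSAD2* most.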
